A study of Mus musculus with 2 samples.

Results

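The Elane Prtn3 granulocyte progenitors described here were 1409 cells of mouse bone marrow cultures, taken from 8913 filtered cells harvested on culture days 0 and 3. The cells were chosen on their own unique molecular identifier (UMI) counts, each UMI standing for 1 captured RNA molecule. A member was a hashtag singlet of day 0 or day 3 with 500 or more detected genes and under 15% mitochondrial UMIs, with 20 or more UMIs of Elane plus Prtn3, at most 1 UMI of Irf8, and Camp under 0.5% of all gene UMIs. The levels of those 4 genes inside the group were therefore set in part by the choice and are given as a description. Cells with enough Elane plus Prtn3 but 2 or more Irf8 UMIs (869 cells, named Irf8 neighbours below) and cells with enough Elane plus Prtn3 but Camp at 0.5% or more (315 cells, Camp neighbours) served for comparison, and 6320 cells had fewer than 20 Elane plus Prtn3 UMIs.

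Lineage-depleted bone marrow cells of 8- to 10-week-old C57BL/6 mice were cultured with GM-CSF at 20 ng/ml, with medium holding 40 ng/ml added on day 2, and received heme-albumin (300 µM heme) or albumin alone on day 3. The depletion antibodies (CD5, CD11b, CD45R, Gr-1, 7-4 and Ter-119) remove lymphoid, mature myeloid and erythroid cells, so that later granulocyte stages were removed at the start. The 5 culture days were marked with hashtag antibodies and pooled into 1 10x 3′ library for the control arm and 1 for the heme arm. The hashtags of days 0 and 3 in the heme library carry the name of that arm but stand for time points at or before the addition. The sources used here do not say whether both arms had separate cultures on those days or 1 culture that was split. Both arms share GM-CSF, and all groups share the lineage depletion. The hashtags place day 0 cells at the start of the culture and day 3 cells after days in GM-CSF. The study describes cultures started on different days, so the day groups may also differ in culture start. The day contrast, the time in GM-CSF and the culture start therefore cannot be told apart. There was 1 library per arm, and no test between conditions was possible. The control and heme libraries are therefore shown side by side, and every interval is a 95% interval that covers counting error only.

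Granulocyte development proceeds from multipotent and granulocyte-monocyte progenitors to promyelocytes, myelocytes and neutrophils, and each step fills another type of granule. Promyelocytes make the primary (azurophil) granules, which hold the serine proteases neutrophil elastase (Elane), proteinase 3 (Prtn3) and cathepsin G (Ctsg) together with myeloperoxidase (Mpo). Myelocytes then make the secondary granules with cathelicidin (Camp), lactoferrin (Ltf) and neutrophilic granule protein (Ngp), a step that depends on the transcription factor C/EBP epsilon (Cebpe). IRF8 favours the monocyte and dendritic branch, and Gfi1 the granulocyte branch.

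The control library held 13961 barcodes with 198754588 gene UMIs and the heme library 17378 barcodes with 333481636. The members held a median of 12203 UMIs per cell on day 0 and 19756 on day 3 in the control library, and 16479 and 24771.5 in the heme library. Ribosomal protein genes took a median of 34.4% and 23.8% of member UMIs on days 0 and 3 in the control library and 29.1% and 19.2% in the heme library, so depth and ribosomal share moved with the culture day and their part in the results was not tested. Among members, the median gene stood 0.37 (day 0) and 0.40 (day 3) log2 units higher in the heme library than in the control library. Of all genes, 16.2% were at least 2-fold higher and 0.65% lower in the heme library on day 0, and 10.2% higher and 0.0929% lower on day 3, so levels are compared between days within a library. The libraries shared 112 barcodes, of which 6 carried members, and no barcode was a member in both.

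The share of cells that met the limits was higher on day 3 than on day 0 in both libraries. In the control library 123 of 1646 cells of day 0 were members (7.47%, interval 6.25 to 8.85%), against 462 of 2089 cells of day 3 (22.1%, 20.4 to 24.0%). In the heme library the numbers were 120 of 1827 (6.57%, 5.48 to 7.80%) and 704 of 3351 (21.01%, 19.6 to 22.4%). The day 3 share exceeded the day 0 share by 14.6 points (12.4 to 16.9) in the control library and by 14.4 points (12.6 to 16.2) in the heme library, which are nearly the same size. Shares are relative, so more members and fewer other cells cannot be told apart. The limits are raw counts, and the deeper day 3 cells can reach 20 UMIs more easily and exceed 1 Irf8 UMI more easily. With every cell thinned to 5000 UMIs, and shallower cells left out, the shares were 12.9% and 19.8% in the control library and 10.8% and 18.0% in the heme library, so the order of the days held at a smaller gap. With the study's own limits of at most 5000 genes and under 30% ribosomal UMIs, which left 356 of the 1646 control cells of day 0, the shares were 2.25% and 22.1% in the control library and 5.46% and 16.7% in the heme library.

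**Figure D1:**
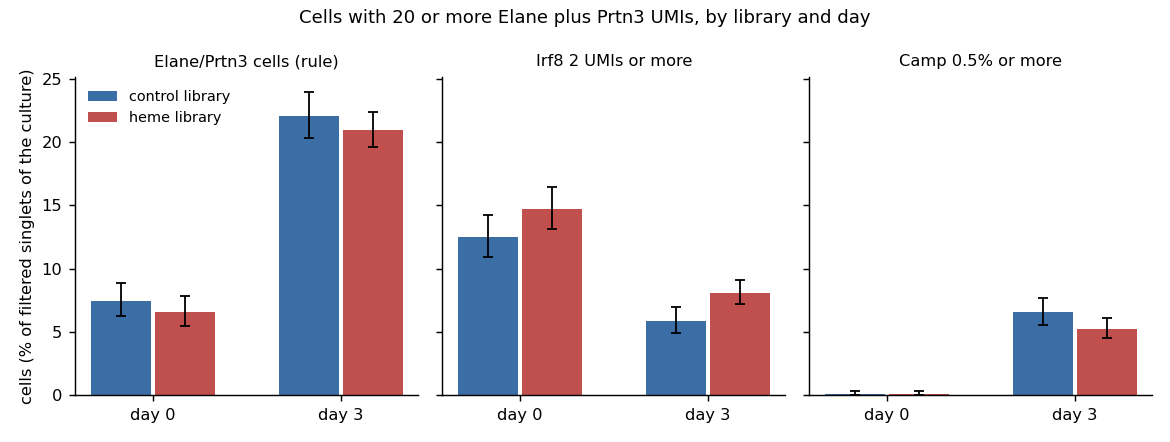
Share of filtered singlets of each culture (y axis, percent) that were members (left), Irf8 neighbours (middle) or Camp neighbours (right), by day (x axis) and library (colour). Error bars are exact 95% binomial intervals. Cells of every panel hold 20 or more Elane plus Prtn3 UMIs, so other cells with Irf8 or Camp are not counted. Members were near 7% on day 0 and above 20% on day 3, while the Irf8 neighbours were the larger group on day 0.

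The Irf8 neighbours had the opposite order. They were 12.5% of day 0 and 5.89% of day 3 cells in the control library, and 14.7% and 8.09% in the heme library. Camp neighbours, 1 cell in each day 0 culture, made up 6.56% and 5.25% of the day 3 cells. The thresholds cut through a continuous range: 5 control and 5 heme members of day 0, and 31 and 29 of day 3, held only 20 to 24 Elane plus Prtn3 UMIs. Just outside, at 15 to 19 UMIs with the other limits met, were 10 and 7 cells of day 0 and 23 and 29 of day 3. Cells kept out by 2 or 3 Irf8 UMIs numbered 50 (control) and 37 (heme) on day 0, against 74 and 110 on day 3. The median member held 214 and 254 Elane plus Prtn3 UMIs on days 0 and 3 in the control library and 180 and 198.5 in the heme library, far above the minimum of 20.

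Elane (ENSMUSG00000020125, GRCm38 chromosome 10, 79886247 to 79888215, plus strand) and Prtn3 (ENSMUSG00000057729, chromosome 10, 79874476 to 79883174, plus strand) are neighbours in one protease cluster, Mpo (ENSMUSG00000009350) lies on chromosome 11 at 87793581 to 87804413 on the plus strand, and Ctsg (ENSMUSG00000040314) on chromosome 14 at 56099881 to 56102574 on the minus strand. The sequences are the 250 bases before each start site in RefSeq (GRCm38.p6), read 5′ to 3′ along the gene, and they are shown because the transcripts of these 4 genes varied together between single cells. They span chr10:79886062-79886311 (plus), chr10:79879417-79879666 (plus), chr11:87793534-87793783 (plus) and chr14:56102575-56102824 (minus). Capitals mark AGGAAGT, a core of the kind that PU.1 and other ETS factors bind, searched on both strands and picked after these promoters had been read.
Elane: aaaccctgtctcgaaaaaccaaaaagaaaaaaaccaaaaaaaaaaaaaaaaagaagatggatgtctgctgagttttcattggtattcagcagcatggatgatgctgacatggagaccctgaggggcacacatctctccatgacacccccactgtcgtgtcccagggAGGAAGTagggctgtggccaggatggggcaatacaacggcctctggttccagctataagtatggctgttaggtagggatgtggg
Prtn3: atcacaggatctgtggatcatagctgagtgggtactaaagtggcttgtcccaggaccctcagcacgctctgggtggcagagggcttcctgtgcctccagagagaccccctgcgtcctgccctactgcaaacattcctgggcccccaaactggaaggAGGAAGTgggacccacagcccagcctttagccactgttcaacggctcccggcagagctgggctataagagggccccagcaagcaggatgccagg
Mpo: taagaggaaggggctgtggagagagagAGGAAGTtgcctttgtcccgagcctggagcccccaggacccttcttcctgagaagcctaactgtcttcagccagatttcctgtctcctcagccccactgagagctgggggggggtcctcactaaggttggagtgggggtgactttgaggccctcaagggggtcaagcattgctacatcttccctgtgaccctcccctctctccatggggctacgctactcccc
Ctsg: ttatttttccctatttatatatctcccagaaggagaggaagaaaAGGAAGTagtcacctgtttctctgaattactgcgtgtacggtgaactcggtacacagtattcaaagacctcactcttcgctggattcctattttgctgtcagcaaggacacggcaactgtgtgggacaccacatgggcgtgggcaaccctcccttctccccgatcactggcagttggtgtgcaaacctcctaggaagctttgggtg
The motif occurred 1 time in each window, at -84 (Elane), -94 (Prtn3), -223 (Mpo) and -206 (Ctsg) bases from the start site. Of 32851 RefSeq promoter windows of 250 bases before to 50 after the start, 9.35% held it, and 7 of the 14 primary granule genes with a window did. The 4 genes on which the motif was picked are among the 7, so this count was set in part by the pick. TTGCNNAA, a short C/EBP form present in 10.8% of all windows, was in 2 of the 14 and in none of these 4, and the MYB core AACNG, present in 80.3% of all windows, was in 13 of 14. None of these matches shows binding.

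Elane and Prtn3 made up a somewhat smaller part of member UMIs on day 3 than on day 0, and Mpo and Ctsg a much smaller part. The raw count of Elane plus Prtn3 was not lower on day 3. Its median per member was 214 and 254 on days 0 and 3 in the control library, and 180 and 198.5 in the heme library. Levels are CPM (UMIs of a gene per 1e6 gene UMIs) and are compared within a gene only. They were taken from the UMIs summed over the cells of a library and day. The erythroid cells of day 0 were 598 control and 501 heme cells with 5 or more Car1 plus Klf1 UMIs. For genes that erythroid cells do not express, they give the level that free RNA in the droplets can produce. They are no such measure for genes they may express, such as Myb, at 257 and 395 CPM in them. Elane stood at 9938 CPM on day 0 and 7316 on day 3 in the control library, and at 7840 and 5177 in the heme library, against 14.9 and 27.0 CPM in the erythroid cells. Prtn3 followed it with 8129 and 6710 CPM in the control library and 6139 and 4753 in the heme library. These differences, log2 ratios of -0.44 and -0.60 for Elane and -0.28 and -0.37 for Prtn3, were below the 2-fold limit used for a call.

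Mpo, which makes hypochlorous acid from hydrogen peroxide and was not part of the choice, was at 5810 CPM on day 0 and 1130 on day 3 in the control library, and at 8540 and 1612 in the heme library. Both day 0 values were several times both day 3 values, with log2 ratios of -2.36 (-2.40 to -2.32) and -2.41 (-2.43 to -2.38). Ctsg, a chymotrypsin-like granule protease, was at 3446 and 1149 CPM in the control library and at 2018 and 600 in the heme library, log2 ratios of -1.58 and -1.75. In cells thinned to 5000 UMIs, a UMI of Mpo was found in 100% and 98.3% of the day 0 members (control and heme) and in 71.4% and 73.8% of the day 3 members, with 5.23% and 11.2% in erythroid cells. The median day 3 member still held 3 Mpo UMIs of 5000, against 30 and 41 on day 0.

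Across the 16 genes of a primary granule list, 15 passed the mean of 10 CPM, 2 were at least 2-fold higher on day 3 in both libraries and 3 were lower. Over all 7537 genes compared in the same way 461 (6.12%) were higher and 339 (4.5%) lower, and the median gene was at log2 -0.03 in both libraries. The list had a median of -0.47 (control) and -0.72 (heme), with 10 of 15 genes lower in both. Besides Mpo and Ctsg, the low one was Nkg7, a granule membrane protein also known from cytotoxic lymphocytes, at 855 and 352 CPM in the control and 643 and 244 in the heme library. The high ones were Ctsc, the peptidase that activates the granule proteases (38.8 and 203 CPM, 37.5 and 170 CPM), and lysozyme, Lyz2 (168 and 1082 CPM, 304 and 946 CPM). Serglycin (Srgn), the proteoglycan that packs the proteases, was at 2211 and 1535 CPM in the control and 2023.6 and 1213 in the heme library, short of a 2-fold difference. Ms4a3, a marker of granulocyte-monocyte progenitors and their offspring, was slightly higher on day 3, at 1349 and 1930 CPM and at 987 and 1424 CPM. Serpinb1a, an inhibitor of the granule proteases, was at 407 and 832 CPM and at 335 and 619 CPM, log2 ratios of 1.03 and 0.89.

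**Figure D2:**
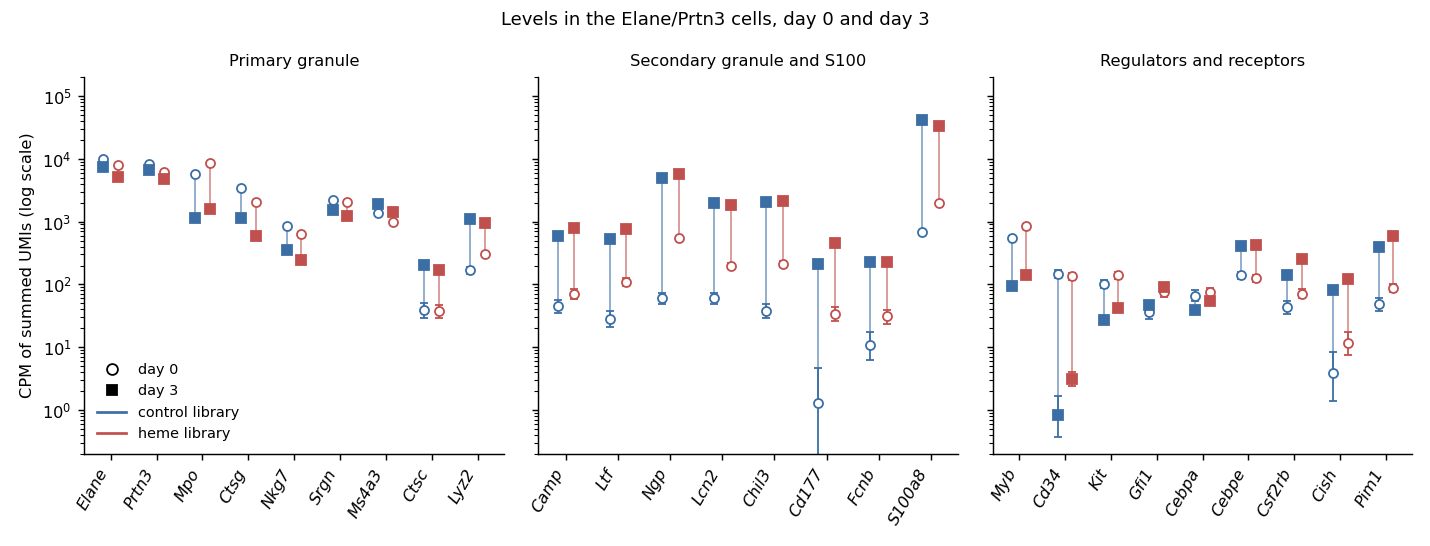
CPM of summed UMIs (y axis, log scale) of primary granule genes (left), secondary granule genes and S100a8 (middle), and regulators, receptors and signalling targets (right) in the members, with open circles for day 0, squares for day 3, colour for the library and bars for exact 95% Poisson intervals. Mpo and Ctsg lie lower and all plotted secondary granule genes higher on day 3 in both libraries, and Gfi1 lies close together on both days.

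Many secondary and tertiary granule genes were higher in members on day 3, although cells with much Camp had been left out. Of 13 genes of that list compared, 10 were at least 2-fold higher on day 3 in both libraries and 0 lower, with list medians of log2 4.41 and 3.25. Ngp stood at 59.8 CPM on day 0 and 4997 on day 3 in the control library and at 543 and 5829 in the heme library. Its summed level on day 0 was close to that of the erythroid cells (44.8 CPM) in the control library and above it (159 CPM) in the heme library. Both day 3 values were far above both. In thinned day 0 cells of the heme library, the median member and the median erythroid cell each held 1 Ngp UMI. The upper quartiles were 2 in members and 1 in erythroid cells, while the highest member held 212. An Ngp UMI was found in 54.8% of these members and 52.4% of these erythroid cells. The higher sum on day 0 in the heme library therefore did not reflect the typical member. Lcn2, the iron-siderophore binding lipocalin, was at 60.5 and 2012 CPM in the control and 195 and 1849 in the heme library. Chil3, a chitinase-like protein, was at 38.2 and 2023 CPM and at 212 and 2106 CPM. The iron-binding lactoferrin Ltf was lower than these, at 28.6 and 533 CPM and at 109 and 750 CPM, and on day 0 it was close to the erythroid cells (24.6 and 79.9 CPM).

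Cd177, a neutrophil surface protein, had 2 UMIs in all control members of day 0 and 2011 on day 3. The log2 ratio was 7.38 with a counting interval of 5.53 to 10.43. With the study's limits, which left 8 control members of day 0, a day 0 count of 0 entered as 3 counts. The ratio of 2.79 found there is therefore a lower bound. In the heme library Cd177 was at 33.9 and 451 CPM, a log2 ratio of 3.73. Camp, limited from above by the choice, was at 45.2 and 584 CPM and at 70.4 and 804 CPM. With the Camp limit moved from 0.5% to 0.1%, a setting added after the data were seen, the medians of the list were 4.04 and 2.53, so the difference did not rest on the members nearest that limit. The matrix metalloproteinase genes Mmp8 and Mmp9 stayed low: Mmp8 was at 11.0 and 28.0 CPM on day 3, and Mmp9 at 1.48 and 6.57 CPM, under the filter.

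S100a8 and S100a9, which form the abundant cytosolic calprotectin of neutrophils and monocytes, made up several percent of all member UMIs on day 3. S100a8 was at 673 CPM on day 0 and 40916 on day 3 in the control library, and at 2006 and 33166 in the heme library, with 363 and 839 CPM in erythroid cells. At 5000 UMIs per cell the median member held 3 (control) and 4 (heme) S100a8 UMIs on day 0, against 2 and 3 in erythroid cells, and 166.5 and 155.5 on day 3. The day 3 range was wide, with quartiles of 25 and 379.75 UMIs in the control and 43 and 281.75 in the heme library. For Ngp the median day 3 member held 5.5 and 14 UMIs of 5000 and the upper quartile 46.5 and 55, while both lower quartiles were 0 and 2. Later genes of mature neutrophils were at or near 0: Retnlg was at 3.49 and 5.70 CPM on day 3, Cxcr2 at 1.48 and 2.50 CPM, and Fpr1 at 0.423 and 3.53 CPM. Of the 7 genes of the mature neutrophil list that were compared, 5 were higher on day 3 and 0 lower (S100a8, S100a9, Ccl6, Wfdc21 and Msrb1).

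**Figure D3:**
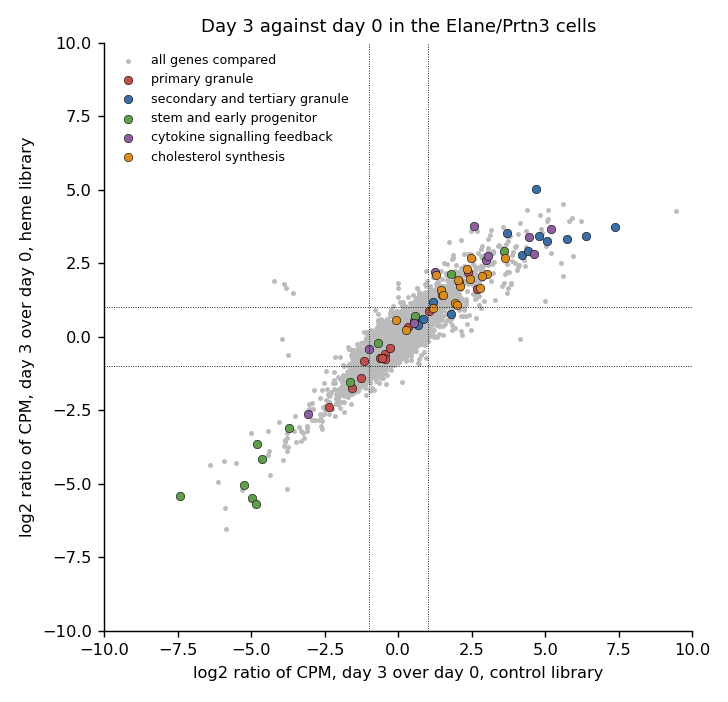
Log2 ratio of CPM, day 3 over day 0, in members of the control library (x axis) and of the heme library (y axis) for 7537 genes in grey, with 5 gene lists in colour and dotted lines at 2-fold. Secondary granule, signalling feedback and cholesterol synthesis genes lie mostly at the upper right and stem cell genes at the lower left, and nearly all genes past 2-fold in 1 library have the same sign in the other.

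In the control library alone 8.7% of genes were at least 2-fold higher on day 3 and 7.4% lower, and in the heme library alone 7.32% and 5.76%. Directions were shared: of 1214 genes past 2-fold in the control library, 1203 had the same direction in the heme library, and of 986 in the heme library, 977 had the same direction in the control library. The cultures behind them may be 1 and the same, so the count compares libraries and not animals. The split of the calls depended on the scaling: 57.6% of them were higher on day 3 by library total, 70.0% with edgeR's TMM factors, 67.5% with DESeq2's size factors and 36.2% when ribosomal protein and mitochondrial genes were left out of the total, which moved the median gene to -0.27 and -0.23.

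Transcription factors of the granulocyte path differed by their stage. Cebpe was at 139 CPM on day 0 and 402 on day 3 in the control library and at 125 and 418 in the heme library, against 3.28 and 4.74 CPM in erythroid cells. All day 3 values were above all day 0 values, with log2 ratios of 1.53 (1.34 to 1.74) and 1.74 (1.56 to 1.93). At 5000 UMIs per cell, a Cebpe UMI was found in 43.7% and 43.5% of day 0 members and in 72.7% and 76.5% of day 3 members. Gfi1, a repressor of monocyte genes, was at 36.9 and 46.6 CPM in the control and 74.5 and 91.8 in the heme library, log2 ratios of 0.34 (-0.06 to 0.76) and 0.30 (0.06 to 0.56). Cebpa, which specifies granulocyte-monocyte progenitors, was at 66.2 and 38.8 CPM and at 74.5 and 55.0 CPM, and Spi1, which encodes PU.1, at 213 and 399 CPM and at 213 and 387 CPM, neither past 2-fold in both libraries.

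Myb, needed for progenitor proliferation, was lower on day 3, at 545 and 93.5 CPM in the control and 865 and 139 CPM in the heme library, log2 ratios of -2.54 and -2.64. Of the 18 compared factors, 6 were higher on day 3 (Cebpe, Cebpb, Cebpd, Id1, Id2 and Klf4) and 5 lower (Myb, Myc, Hoxa9, Irf8 and Stat5a), and Irf8 was part of the choice. Cebpb, the C/EBP factor of emergency granulopoiesis, was at 143 and 676 CPM and at 116 and 438 CPM. Id1, an inhibitor of basic helix-loop-helix factors, was at 7.64 and 219 CPM and at 10.6 and 136 CPM. Myc lost its 2-fold difference under 5 of the other settings, with TMM factors for example at -0.99 and -0.90.

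Of 12 compared genes of stem and early progenitor cells, 8 were lower on day 3 and 2 higher, with medians of -4.16 and -3.38. The summed level of the list was higher on day 3, at 1325 and 2700 CPM in the control and 1715 and 2007 CPM in the heme library, with Ifitm1 and Ifitm3 as its most abundant members on that day. Cd34, a sialomucin of early progenitors, was at 147 CPM on day 0 and 0.845 on day 3 in the control library and at 135 and 3.15 in the heme library. At 5000 UMIs per cell, 47.1% and 44.3% of day 0 members held a Cd34 UMI, against 0.649% and 1.42% on day 3, and the day 3 shares were at the level of erythroid cells. Sox4 was at 167 and 6.76 CPM and at 184 and 10.3 CPM. Adgrl4 was at 73.2 and 1.90 CPM and at 80.03 and 2.44 CPM, and Cd27 at 45.2 and 1.59 CPM and at 48.1 and 0.923 CPM. The higher ones were Ifitm1 and Ifitm3, membrane proteins that also mark interferon responses, with Ifitm1 at 143 and 1747 CPM and at 148 and 1127 CPM. The interferon list as a whole had 3 genes compared, with Ifi47 lower and none higher.

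Of 8 growth factor receptor genes compared, 2 were higher and 2 lower on day 3, with medians of -0.04 and 0.02. The beta chain of the GM-CSF receptor, Csf2rb, was at 43.3 and 142 CPM in the control and 70.9 and 257 in the heme library, and the alpha chain Csf2ra at 50.3 and 90.2 CPM and at 62.3 and 115 CPM, short of 2-fold. Reads of Csf2rb and its close copy Csf2rb2, also higher, may be split between them. Kit, the stem cell factor receptor, was lower, at 101 and 27.6 CPM and at 140 and 41.6 CPM, and Il3ra was lower at 38.2 and 14.6 CPM and at 37.0 and 16.3 CPM. The G-CSF receptor Csf3r was at 42.0 and 28.3 CPM and at 80.03 and 54.3 CPM, log2 ratios of -0.57 and -0.56.

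Of the 10 feedback and survival genes compared, 7 were higher and 1 lower on day 3, with medians of 2.77 and 2.67. Cish, a STAT5-induced inhibitor of cytokine signalling, was at 3.82 and 82.8 CPM in the control and 11.7 and 122 in the heme library. A Cish UMI was found in 2.52% and 4.35% of thinned day 0 members and in 32.3% and 41.2% of day 3 members, and the day 0 shares were no higher than in erythroid cells (2.96% and 6.75%). The kinase Pim1 was at 48.4 and 399 CPM and at 89.1 and 595 CPM. Socs1, Socs2, Bcl2l1 and the near-identical Bcl2a1b and Bcl2a1d were the other higher genes, and Bcl2 was the lower one, at 63.0 and 7.504 CPM and at 67.9 and 11.0 CPM. With the study's limits on genes and ribosomal share, which left 8 control members of day 0, the control median of the list was 0.00199 and the heme median 1.95. Any count of 0 in those 8 cells entered as a floor of 3 counts, and its part in this median was not tested.

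**Figure D4:**
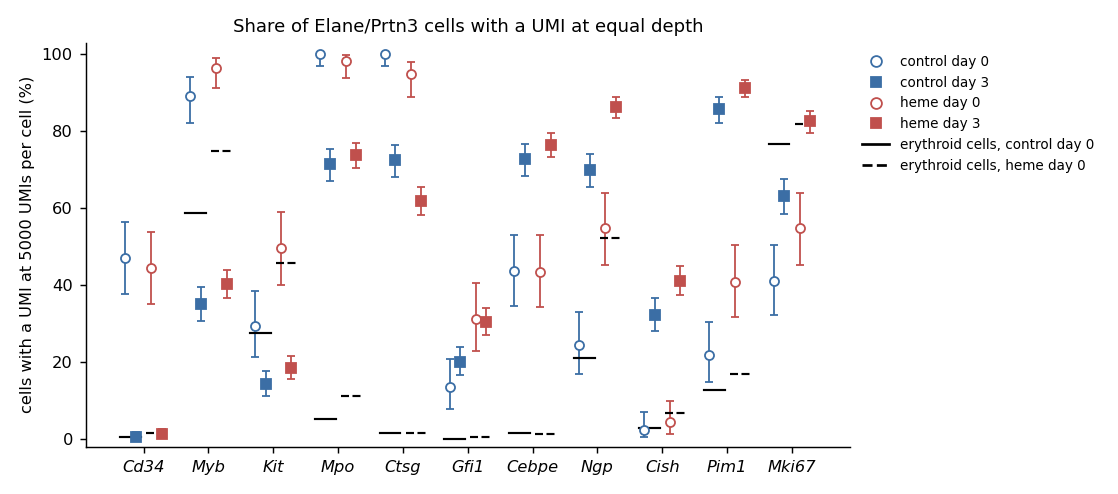
Share of members with at least 1 UMI of a gene after each cell was thinned to 5000 UMIs (y axis, percent, exact 95% binomial intervals), by library and day, with black lines for the erythroid cells of day 0 (solid for the control library, dashed for the heme library). Cd34, Myb, Mpo and Ctsg have lower and Cebpe, Cish and Pim1 higher shares on day 3, and the Ngp shares of day 0 lie near the erythroid lines.

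The NADPH oxidase, which makes superoxide in phagocytes, was represented by 7 genes, of which 4 were higher on day 3 and 0 lower. Its catalytic subunit Cybb was at 21.6 and 596 CPM in the control and 99.3 and 1077 in the heme library, and the partner subunit Cyba at 410 and 1781 CPM and at 355 and 1297 CPM. The cytosolic subunits Ncf1 and Ncf4 were higher too.

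Cholesterol synthesis genes were higher on day 3 in 16 of 19 compared and lower in 0, with medians of 2.04 and 1.72. Idi1, the isomerase that supplies dimethylallyl diphosphate, was at 21.6 and 121 CPM in the control and 21.3 and 135 in the heme library. Fdps, which makes farnesyl diphosphate, was at 77.6 and 392 CPM and at 54.7 and 267 CPM. Mvd, a decarboxylase of the mevalonate pathway, was at 4.46 and 54.9 CPM and at 9.12 and 58.3 CPM. Glycolysis genes were past 2-fold in 3 of 16 (Eno1, Slc2a3 and Slc16a3).

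Cell cycle genes differed less. None of the 18 S phase and 20 G2 and M phase genes were past 2-fold in both libraries. Of the latter, 18 were higher on day 3 in both, with medians of 0.50 and 0.70. Mki67, a marker of cycling cells, was at 148 and 244 CPM in the control and 219 and 397 in the heme library, and at 5000 UMIs per cell was found in 41.2% and 54.8% of day 0 members and 63.2% and 82.6% of day 3 members. G2 and M genes took a median of 0.173% of member UMIs on day 0 and 0.232% on day 3 in the control library, and 0.177% and 0.293% in the heme library. S phase genes took 0.249% and 0.256%, and 0.299% and 0.296%, differences of 0.00737 and -0.00266 points.

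Endoplasmic reticulum folding and secretion genes, which serve the heavy protein export of promyelocytes, had 1 of 22 past 2-fold, Calr, at 1932 and 856 CPM and at 2550 and 1093 CPM. The list's medians of -0.27 and -0.41 kept their sign under every setting run, and 19 of the 22 were lower on day 3 in both libraries. Of 15 granule sorting and lysosome genes compared, 2 were higher (Lamp1 and Psap) and 1 lower, Rab38, at 50.3 and 5.81 CPM and at 44.1 and 5.37 CPM. Of 19 chemokine and adhesion receptor genes compared, 6 were higher, among them the CD11b and CD18 chains Itgam (15.9 and 108 CPM, 37.5 and 189 CPM) and Itgb2 (19.1 and 118 CPM, 32.9 and 169 CPM), and none lower. CD11b was a target of the depletion before day 0. Of 6 protease inhibitors compared, Cstb alone was past 2-fold. Of 11 immediate early and stress genes, 4 were lower (Jun, Fos, Fosb and Dusp1) and none higher.

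Among the 15 genes with the strongest day 3 excess at 50 CPM or more were, beside those named, the regulatory light chain Myl10 (4.46 and 216 CPM, 6.08 and 138 CPM), the endothelial lipase Lipg, thrombospondin 1 (Thbs1, 8.27 and 168 CPM, 25.8 and 315 CPM) and the stefin-related Cstdc4 (3.18 and 66.1 CPM, 11.1 and 120 CPM). Lipg had 1 UMI on day 0 in the control members and 4170 on day 3, a log2 ratio of 9.44 with an interval of 6.96 to 14.74, and 30.4 and 584 CPM in the heme library. Its control level on day 0 (0.636 CPM) was below that of erythroid cells (1.88 CPM). With the study's limits, which left 8 control members of day 0, the control ratio was 3.83 and the heme ratio 4.23. The control value is a lower bound there, because a day 0 count of 0 entered as 3 counts. The strongest deficits on day 3 included genes known from mast cells and basophils: carboxypeptidase Cpa3 was at 122 and 8.77 CPM and at 123 and 3.42 CPM, and histidine decarboxylase Hdc at 98.7 and 4.65 CPM and at 133 and 8.96 CPM. Apoe was at 136 and 2.96 CPM and at 69.4 and 3.53 CPM. On day 0 erythroid cells held as much, 143 and 98.6 CPM, and Irf8 neighbours less, 15.9 and 21.1 CPM. The part of free RNA in the Apoe level was not tested. Pdcd4, an inhibitor of translation, was at 354 and 25.5 CPM and at 412 and 28.1 CPM.

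Within a day, the RNA levels of the 4 markers went together from cell to cell. Elane and Prtn3, both used in the choice, had Spearman correlations across thinned cells of 0.78 and 0.90 on days 0 and 3 in the control library (119 and 462 cells) and 0.83 and 0.86 in the heme library (115 and 702 cells). Mpo and Ctsg, not used, followed each other with 0.54 and 0.78 in the control and 0.48 and 0.74 in the heme library. Over 2815 genes ranked on day 3, the most similar to the sum of the 4 markers were Srgn (0.87 control, 0.83 heme), Ms4a3 (0.75 and 0.68), Plac8 (0.71 and 0.63) and Nkg7 (0.66 and 0.52), followed by Alas1, Calr, Cmtm7, Rgcc, Cst7 and Mt1 at 0.40 to 0.57. The most opposed, a ranking added after the data were seen, were S100a6 (-0.67 and -0.62), Lyz2 (-0.70 and -0.59) and Fcer1g (-0.65 and -0.56). Cells of 1 culture share their library, and thinned shares sum to a fixed total, so these values are descriptions.

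A few pairs of a marker with a later gene were looked at as well. On day 3 Mpo and Ngp correlated at -0.26 and -0.38, and Ctsg and S100a8 at -0.35 and -0.43, while Elane and Ngp were close to 0 in the control library, at -0.09, and at -0.20 in the heme library. Cebpe and Ngp correlated at 0.56 and 0.54 on day 3. On day 0 the Cebpe and Ngp values were -0.10 and 0.22.

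Members were set beside the Irf8 neighbours of the same library and day. On day 3 the neighbours were deeper, with medians of 27387 (control) and 35820 (heme) UMIs against 19756 and 24771.5 in members. At 5000 UMIs per cell, an Irf8 UMI was found in 90.2% and 90.3% of day 0 neighbours. On day 3 it was found in 54.5% and 53.9%. The part of depth in the differences was not tested. Of the 7537 genes 73 (0.969%) were at least 2-fold higher in the members in all 4 cultures and 44 (0.584%) lower. The groups were cut on Irf8, so genes that follow Irf8 had to differ, and the differences describe the cut. Cebpe had the largest excess by its smallest value over the cultures, 2.67 log2 units or more in each: the neighbours held 18.8 and 27.3 CPM in the control and 19.7 and 39.3 CPM in the heme library. Gfi1 was 1.82 or more higher, with 10.1 and 11.5 CPM and 21.1 and 14.6 CPM in the neighbours. Other genes with the largest excess were Syne1, Cd63, Pglyrp1 (peptidoglycan recognition protein), Hsd11b1, G0s2, Fcnb, Cpa3 and Nkg7. Large deficits were in S100a10, Psap, Lgals1, Cfp (properdin), Tmsb10, S100a4, Ctsc, Esyt1 and Glipr1, with S100a10 at -1.53 or lower in every culture.

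**Figure D5:**
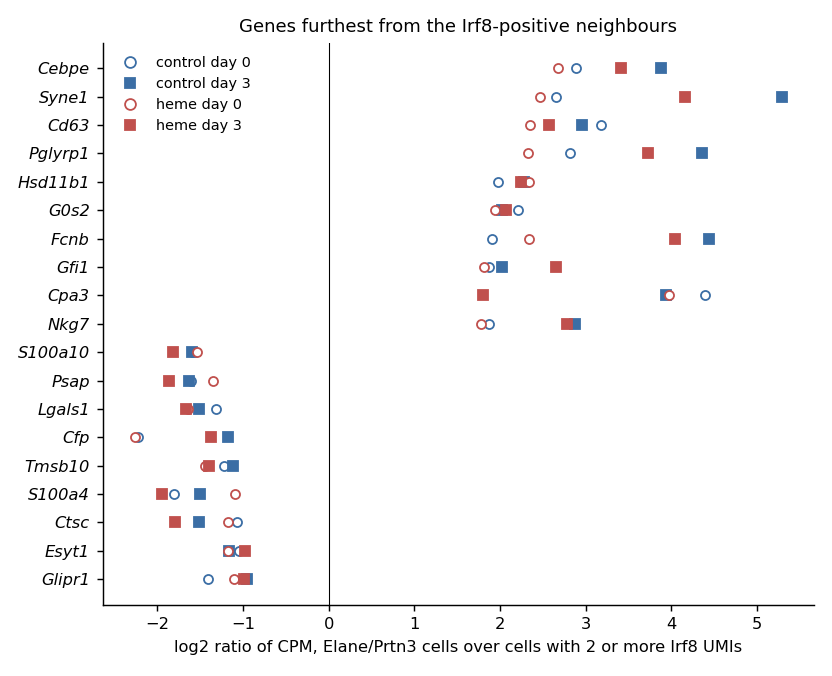
Log2 ratio of CPM (x axis) of members over Irf8 neighbours of the same library and day for genes furthest above and furthest below in all 4 cultures (open circles day 0, squares day 3, colour for the library). Cebpe and Gfi1 lie to the right and S100a10 and Psap to the left in every culture, and Syne1, Pglyrp1 and Fcnb lie further right on day 3.

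Secondary granule genes differed less between the days in the neighbours. In them, 5 of the 13 secondary granule genes were at least 2-fold higher on day 3 in both libraries, with medians of 1.29 and 1.16, and over all genes 5.53% were higher and 4.05% lower. Ngp was at 44.9 and 110 CPM in the control and 185 and 304 CPM in the heme neighbours, and S100a8 at 376 and 1589 CPM and at 856 and 2725 CPM. Mpo was lower on day 3 in the neighbours as well (3945 and 544 CPM, 5407 and 547 CPM), and so was Cd34 (159 and 4.31 CPM, 223 and 8.45 CPM). Signalling feedback genes were higher in 7 of 10 and cholesterol synthesis genes in 14 of 19. The difference between members and neighbours in the day contrast was not tested.

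Lists of genes known from other cell types gave a mixed picture in the members. T and B cell genes Cd3e, Trbc1, Rag1 and Gzma and the dendritic cell genes Siglech and Xcr1 had no UMI in any of the 4 sets, which allows up to 1.91 and 0.317 CPM on days 0 and 3 in the control library and 1.52 and 0.163 CPM in the heme library (3 counts of each total). The sum of the 12 erythroid genes was 768 and 58.2 CPM in the control and 150 and 197 CPM in the heme members, against 8747 and 7036 CPM in the erythroid cells. Of the 6 erythroid genes compared, Car2 was lower and none higher in both libraries. Of 984 hemoglobin UMIs (Hba-a1, Hba-a2, Hbb-bs and Hbb-bt) in control members of day 0, 915 lay in 1 cell, and of 2592 in heme members of day 3, 965 lay in 1 cell. Monocyte genes were mixed: 5 of 10 were higher on day 3 and 3 lower, with Ly6c2 at 762 and 1870 CPM and at 954 and 2258 CPM, and F13a1 at 43.3 and 9.93 CPM and at 47.1 and 9.61 CPM. Ccr2 was at 20.4 and 77.3 CPM and at 20.3 and 65.6 CPM, but with a minimum of 40 Elane plus Prtn3 UMIs its log2 ratios dropped from 1.92 and 1.69 to 0.97 and 1.01. Of 6 basophil and mast cell genes compared, 3 were lower and 2 higher, and the higher ones were Ifitm1 and Cyp11a1. Megakaryocyte genes were all under the filter, the 1 eosinophil gene compared, Siglecf, was lower, and of the 6 dendritic cell genes compared none was past 2-fold in both libraries. Of the lymphoid list, 3 genes were compared, and Nkg7 was the lower one.

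Heme oxygenase 1 (Hmox1), which degrades heme, was at 126 and 119 CPM in members of the heme library on days 0 and 3, and at 0.636 and 11.1 CPM in those of the control library. Erythroid cells of day 0 in the heme library held 111 CPM and those in the control library 0.938 CPM. The hashtags place these cells before the heme was added, the level was alike in members and erythroid cells of that library, and the part of free RNA from cells of later days was not tested. Of 7 macrophage and heme genes compared, 4 were higher on day 3 in both libraries, namely Slc40a1, Mrc1, Ftl1 and Adgre1.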

How the data were processed

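Single-cell libraries (10x 3′ v3.1) of GM-CSF bone marrow cultures were sequenced for 1 control and 1 heme arm, each pooling 5 hashtagged culture days. The deposited matrices hold UMI counts per gene and cell, made by the authors with Cell Ranger (4.0.0 in the submitters' processing notes, 5.0.0 in the matrix headers) on GRCm38.p6, and the authors' deposited hashtag calls (Seurat HTODemux, positive quantile 0.99) were used as given. Expected doublets within 1 hashtag were 2.75% (control) and 3.68% (heme) of singlets and were not removed, and no caller was run.

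From the counts, cells were chosen by the limits given in the report, UMIs were summed per library and day, and CPM and log2 ratios were formed over genes with a mean of 10 CPM or more in the 4 sets. With 1 library per group no model was fitted: a gene counts as higher or lower at 2-fold or more in both libraries, a count of 0 enters as a floor of 3 counts, and intervals are exact (Poisson or Clopper-Pearson). Per-cell shares used cells thinned to 5000 UMIs. Named genes were list members (26 lists), the 15 highest and 15 lowest ratios at 50 CPM or more, the 10 furthest above and below the Irf8 neighbours and the 10 most like the marker sum. Some named items are not reported here. Members and lists were chosen with earlier results of these data known. The ratios and calls were tested on simulated data. Of 26124 gene identifiers 26090 were in GENCODE M21. Python 3.11.15, numpy 2.4.6, scipy 1.17.1, edgeR 4.0.16 and DESeq2 1.42.0 (factors only) were used, with alternatives in the closing section.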

Additional observations from a re-analysis of the deposited data

Results flagged for a closer look

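The 4 hemoglobin genes moved in opposite directions between the libraries, which was not tested. From day 0 to day 3 the log2 ratios were -3.82 (control) and 1.65 (heme) for Hbb-bt, -4.22 and 1.89 for Hbb-bs, -3.57 and 1.49 for Hba-a1, and -3.90 and 1.80 for Hba-a2. In the control library 915 of 984 hemoglobin UMIs of day 0 came from 1 member, and in the heme library 965 of 2592 of day 3 did. Hba-a1 and Hba-a2 are near-identical, and their reads may be split between them.

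The days after the addition lay outside the comparisons above, and on day 7 cells meeting the same limits were more frequent in the heme library, 49 of 2772 (1.77%, 1.31 to 2.33%), than in the control library, 3 of 3008 (0.0997%, 0.0206 to 0.291%). The 49 cells held a median of 70 Elane plus Prtn3 UMIs, and the 95th percentile over all cells of that culture was 6. The limits act on these UMIs, so a median above that percentile followed from the choice and is given as a description. The 49 cells had Cebpe at 280 CPM and Ngp at 8112 CPM. There was 1 library per arm, and the part of library or culture was not tested.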

How the results depend on the processing

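No paired analysis was possible because no result came from a test: each arm was 1 library, replicate numbers only name the samples, and the days were compared within each library. With no test, each alternative shows how a value moved. Of 646 values for 72 named genes, averaged over both libraries, 645 kept their direction and 1, for Gfi1, did not. Of 66 list medians of 6 other lists, 10 changed direction, in the S phase, transcription factor, growth factor receptor, and immediate early and stress lists. The cause was not tested.

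Shares on day 0 and day 3 (control, then heme) depended on the limits. With 10 Elane plus Prtn3 UMIs they were 9.54% and 25.2% in the control and 23.5% on day 3 in the heme library, and with 40 UMIs 18.9% on day 3 (control), and 5.1998% and 18.4% (heme). With up to 3 Irf8 UMIs they were 10.5%, 25.7%, 8.59% and 24.3%, and with Camp under 1% the day 3 shares were 24.1% and 23.5%. Thinned cells gave 12.9%, 19.8%, 10.8% and 18.0%, and the study's limits 2.25% and, in the heme library, 5.46% and 16.7%.

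Against 461 higher and 339 lower genes, the study's limits gave 235 and 561, a minimum of 50 CPM 178 and 63, a total without ribosomal and mitochondrial genes 693 lower and no CPM minimum 1186 lower. TMM factors put the median gene at 0.12 (control) and 0.15 (heme). The mean of both libraries' list medians was 2.72 for signalling feedback, and became 2.88 with TMM factors, 2.86 with DESeq2 factors, 2.52 without ribosomal genes, 0.98 with the study's limits (8 control cells on day 0), 3.403 at 50 CPM and 2.55 with no minimum. For G2 and M genes it was 0.60, 0.76 with TMM factors and 0.40 without ribosomal genes. Without ribosomal genes it was -0.79 for primary granule and -4.35 for stem genes. Stem genes stood at -1.58 at 50 CPM, and cholesterol genes at 2.16 at 50 CPM and 1.49 with the study's limits. The S phase share difference averaged 0.00235 points and 0.010 in thinned cells. Among named genes, Serpinb1a and Spi1 passed 2-fold with TMM factors, Cebpd fell short without ribosomal genes, and Csf2rb, Il3ra, Mvd and Ccr2 fell short with the study's limits, where Il3ra also changed sign in the control library (0.28). Shallow day 0 sets limit what low genes can show, because a count of 0 enters as a floor of 3 counts.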

Other observations

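On the other days after the addition, the same limits were met by a smaller share of cells than on day 3 in both libraries. In the control library they were 158 of 2263 cells on day 4 (6.98%, 5.97 to 8.11%) and 59 of 2601 on day 5 (2.27%, 1.73 to 2.92%), and in the heme library 120 of 2999 (4.00%, 3.33 to 4.77%) and 38 of 2665 (1.43%, 1.01 to 1.95%). On day 4 these cells held Elane at 4964 CPM in the control and 990 CPM in the heme library, and Mpo at 914 and 94.5 CPM. Cebpe was at 376 and 302 CPM and S100a8 at 48068 and 49289 CPM on that day. On day 5 Elane was at 3632 and 1736 CPM and Mpo at 769 and 218 CPM. The heme and control values of these days come from 1 library each, so heme, library and culture cannot be told apart.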
